A study of Mus musculus with 2 samples.

Results

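The E2F and retinoblastoma (RB) family genes E2f1, E2f2, E2f3, E2f4, E2f5, E2f6, E2f7, E2f8, Rb1 and Rbl1 were described across the open chromatin of neonatal mouse spleen. These 10 genes were taken by name from the 21827 protein-coding genes of the annotation used (GENCODE release vM21, basic set, on mm10, the mouse assembly GRCm38), as a named family and not by a threshold on a measured value. They, the gene lists and the sequence words below were chosen with earlier results of these data known. Accessible DNA was mapped with DNase-seq, which reads the cuts that DNase I makes in open chromatin, in whole spleen tissue of male B6CASTF1/J mice aged 4 days. These mice are first-generation hybrids of C57BL/6J and CAST/EiJ. The samples form 1 group of 2 biological replicates with no treatment and no contrast, so every comparison is between genes or regions. The labels name a different male for each library and give both the same donor identifier.

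E2F proteins bind DNA, mostly as pairs with a DP protein, in front of genes for DNA replication and cell division. E2F1, E2F2 and E2F3 are known mainly as activators, E2F4 and E2F5 as partners of the RB family in resting cells, E2F6 as a repressor that works apart from RB in a Polycomb-like complex, and E2F7 and E2F8 as atypical repressors that need no DP partner. The pocket proteins RB (Rb1) and p107 (Rbl1) hold E2Fs inactive until cyclin-dependent kinases phosphorylate them. In mice, loss of Rb1 or of E2f4 impairs red cell maturation, and loss of E2f2 disturbs T cell quiescence.

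The signal of a peak is the authors' value, whose scale is not stated, and the number of reads behind it is unknown. Replicate 1 had 80323 peaks and 217159 footprints, which are short stretches inside open chromatin that are protected from the enzyme. Replicate 2 had 88723 peaks and 252901 footprints. A region was called shared where peaks of both libraries overlapped, and a promoter was called open where a shared region lay within 1 kb of a protein-coding start site. Promoters of 10 of 10 erythroid and 7 of 7 B cell marker genes were open, against 59.7% of all protein-coding genes. The counts were 2 of 7 for T cell, 3 of 7 for macrophage, 1 of 6 for spleen stroma and 0 of 6 for hepatocyte markers. The highest promoter peak had a median signal of 5.00 over the erythroid and 1.69 over the B cell markers. Above the median of open promoters (5.90) stood 4 of 10 erythroid and 0 of 7 B cell markers. Of the transcription factor genes of the spleen anlage, Nkx2-5 had no promoter peak, and Tlx1 had a weak one in each library (0.349 and 0.470) that did not overlap. In bulk tissue, a site open in fewer cells and a site less open in each cell cannot be told apart.

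The promoters of 5 members held an E2F word that overlapped a footprint in each library by at least 1 bp. Those of E2f1, E2f3, Rb1 and Rbl1 are printed here because the family's own binding sequence is part of the pattern reported. The words searched were TTTCCCGC, TTTCGCGC, TTTGCCGC and TTTGGCGC on either strand. Each sequence is GRCm38, 5′ to 3′ on the strand of the gene, with E2F words in capitals, and ends at most 30 bases past the start. The stretches are chr2:154569863-154570160 for E2f1, chr13:29986041-29986280 for E2f3, chr14:73325793-73326092 for Rb1 and chr2:157204505-157204640 for Rbl1, all on the minus strand. For E2f2, on the plus strand, the 30 bases around the word at chr4:136172302-136172331 are given for comparison, since no footprint lay over them.
E2f1: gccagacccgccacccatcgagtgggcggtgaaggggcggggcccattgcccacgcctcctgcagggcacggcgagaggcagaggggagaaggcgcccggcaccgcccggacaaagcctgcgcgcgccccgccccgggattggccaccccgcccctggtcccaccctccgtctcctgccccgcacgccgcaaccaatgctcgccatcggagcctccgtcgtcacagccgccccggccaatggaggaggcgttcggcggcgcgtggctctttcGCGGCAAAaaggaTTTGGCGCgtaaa
E2f3: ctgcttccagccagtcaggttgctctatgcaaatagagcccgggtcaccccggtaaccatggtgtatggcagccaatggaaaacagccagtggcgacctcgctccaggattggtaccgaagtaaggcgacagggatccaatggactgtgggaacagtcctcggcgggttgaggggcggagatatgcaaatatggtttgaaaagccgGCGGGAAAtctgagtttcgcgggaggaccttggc
Rb1: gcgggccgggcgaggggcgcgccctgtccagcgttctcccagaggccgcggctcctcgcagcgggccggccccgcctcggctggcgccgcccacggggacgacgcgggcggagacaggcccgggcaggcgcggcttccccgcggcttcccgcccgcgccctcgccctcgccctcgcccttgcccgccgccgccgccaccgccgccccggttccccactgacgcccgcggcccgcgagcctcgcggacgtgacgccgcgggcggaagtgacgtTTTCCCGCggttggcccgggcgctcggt
Rbl1: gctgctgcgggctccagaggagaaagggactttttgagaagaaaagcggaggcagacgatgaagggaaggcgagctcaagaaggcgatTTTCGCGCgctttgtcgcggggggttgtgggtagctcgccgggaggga
E2f2: gcggcatatagTTTGGCGCtaaaaaaaaaa

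E2f2 also held the strongest regions away from start sites of all members, and the leading pair, both in its first intron, is printed with GATA words, CACCC words and E-boxes of either strand in capitals. These are sequences known to be bound by GATA factors, by Krüppel-like factors and by helix-loop-helix factors. The GATA words were AGATAA and, with another first letter, TGATAA. The CACCC word was CCNCNCCC, which also covers some GC boxes. The E-boxes were CAGCTG and, as the other form, CAGATG. The first lies at chr4:136178001-136178200 and the second at chr4:136174881-136175080, both on the plus strand.
E2f2 intron, +5.7 kb: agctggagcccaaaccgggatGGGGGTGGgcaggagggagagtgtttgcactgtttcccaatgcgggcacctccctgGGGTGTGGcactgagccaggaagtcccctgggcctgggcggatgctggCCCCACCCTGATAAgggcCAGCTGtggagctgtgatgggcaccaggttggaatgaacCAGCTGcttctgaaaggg
E2f2 intron, +2.6 kb: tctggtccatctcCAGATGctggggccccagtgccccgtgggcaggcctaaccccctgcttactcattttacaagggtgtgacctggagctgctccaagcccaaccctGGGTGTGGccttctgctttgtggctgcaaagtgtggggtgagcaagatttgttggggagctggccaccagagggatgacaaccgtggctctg

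All 10 members had an open promoter in both libraries. Over all protein-coding genes, 13028 of 21827 promoters were open (59.7%). All 10 also had a peak of the authors' stricter list in each library, against 11944 of 21827 genes (54.7%), and all 10 had at least 1 promoter footprint found in both libraries, as did 12269 of 13028 open promoters (94.2%), so that count does not set the members apart. The promoter signal, the highest peak within 1 kb of a start site, had a median of 8.19 over the members (range 3.18 to 19.0), against 5.90 over all open promoters and 1.04 over all protein-coding genes. Of the members, 6 of 10 stood above the median of open promoters. Their signals spread from the 33.8th percentile of open promoters, at E2f6, to the 94.1st, at E2f8.

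**Figure D1:**
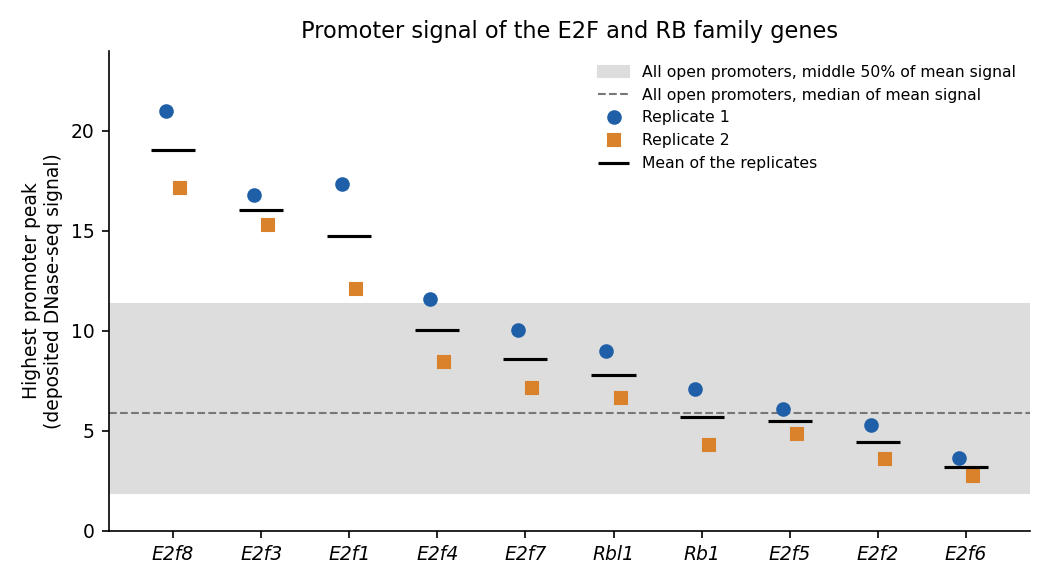
Highest promoter peak of each gene in replicate 1 (circles) and replicate 2 (squares), in units of the deposited signal, with the mean as a bar and genes ordered by that mean. The grey band and dashed line are the middle 50% and the median (5.90) of mean signals over 13028 open promoters. E2f8, E2f3 and E2f1 lie above the band in both libraries and E2f6 is lowest.

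The activators differed among themselves. E2f1, at chr2:154559407-154569892 on the minus strand, had a promoter signal of 17.3 in replicate 1 and 12.1 in replicate 2, or 14.7 ± 3.71 (SD, n = 2), at the 85.9th percentile of open promoters. E2f3, at chr13:29906575-29986063 on the minus strand, had 16.8 and 15.3, or 16.0 ± 1.06 (SD, n = 2), at the 89.0th percentile. E2f2, at chr4:136172394-136196057 on the plus strand, had 5.27 and 3.58, or 4.43 ± 1.19 (SD, n = 2), at the 41.7th percentile. E2f1 and E2f3 overlapped in their ranges, and both libraries of each lay above both libraries of E2f2. The E2f2 values come from different peaks. The highest in replicate 1 was at chr4:136172541-136172740, inside the first exon. The highest in replicate 2 was at chr4:136172161-136172360, upstream of the GENCODE start.

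E2f3 has start sites 1672 bp apart, which open to different degrees. The upstream start, at position 29986063, had signals of 16.8 and 15.3. The downstream start, at position 29984391, had 3.62 and 2.85, or 3.24 ± 0.548 (SD, n = 2). The upstream start was therefore 4.64 times as strong in replicate 1 and 5.37 times in replicate 2. The upstream start gives the longer form known as E2F3a and the downstream one the shorter E2F3b.

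Of the members known as repressors with the pocket proteins, E2f4 (chr8:105297663-105305370, plus strand) had promoter signals of 11.6 and 8.45, or 10.02 ± 2.22 (SD, n = 2), and E2f5 (chr3:14578641-14606309, plus strand) had 6.10 and 4.85, or 5.47 ± 0.887. The 2 libraries of E2f4 lay above those of E2f5. E2f6 (chr12:16810963-16839742, plus strand), the RB-independent repressor, had the lowest promoter of the family, with 3.63 and 2.73, or 3.18 ± 0.638 (SD, n = 2), at the 33.8th percentile of open promoters.

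Of the atypical repressors, E2f8 (chr7:48866429-48881596, minus strand) had the strongest promoter of the family, with 21.0 and 17.1, or 19.0 ± 2.73 (SD, n = 2), at the 94.1st percentile, and ranked first in each library. E2f7 (chr10:110745439-110787384, plus strand) had 10.02 and 7.12, or 8.57 ± 2.05 (SD, n = 2), at the 63.6th percentile. E2f8 has 2 GENCODE start sites, of which RefSeq gives only the upstream one, at position 48881596. The region at the downstream one was 2.54 times as strong in replicate 1 and 2.86 times in replicate 2 as the next strongest, at the upstream one, where the signals were 8.25 and 5.98. A non-coding gene on the opposite strand, Gm2788, starts between them. It is the only annotated start of another gene within 1 kb of a member's start, so the E2f8 region cannot be assigned to E2f8 alone.

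The pocket protein genes among the members had middle values. Rbl1 (chr2:157145893-157204534, minus strand) had promoter signals of 8.97 and 6.64, or 7.81 ± 1.65 (SD, n = 2), at the 60.1st percentile. Rb1 (chr14:73183673-73325822, minus strand) had 7.08 and 4.30, or 5.69 ± 1.97 (SD, n = 2), at the 48.8th percentile, next to the median of open promoters. The order by mean signal was E2f8, E2f3, E2f1, E2f4, E2f7, Rbl1, Rb1, E2f5, E2f2 and E2f6. Ranges of neighbours in this order overlapped, except that E2f8 lay above E2f3 and E2f1 above E2f4. Within each library the order was the same apart from 1 exchange of neighbours in each, E2f1 with E2f3 in replicate 1 and Rb1 with E2f5 in replicate 2.

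Signals in replicate 2 were lower than in replicate 1 at every member. On the log2 scale the difference of replicate 2 minus replicate 1 at the strongest promoter region had a median of -0.45 over the members, against -0.16 over all 60596 shared regions. After centring on that value the members' median was -0.28 (range -0.55 for Rb1 to 0.03 for E2f3) and 9 of 10 lay below 0. Over the 13028 open promoters the centred median was -0.08 and 63.1% lay below 0, and over the 8622 with a signal at least that of E2f6 it was -0.11 and 71.2%. With 2 libraries this difference has no error of its own.

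Footprints and stretches of open bases, from the same libraries, were counted over the windows of all protein-coding starts of a gene. These counts were not matched for signal, CpG content or number of starts. The number of footprints found in both libraries ran from 6 at E2f7 to 16 at E2f8, with 14 at E2f3 and 12 at Rb1, and had a median of 10 over members, against 6 over open promoters. Bases with a false discovery rate of at most 0.001 had medians of 1333 and 1317 bp per member promoter in the 2 libraries, against 734 and 756 bp over open promoters. E2f3, with its separate starts, had the most (2692 and 2679 bp), and E2f5 (690 and 761 bp) and E2f6 (714 and 761 bp) lay near the median of open promoters. The member promoters were rich in CpG, with an observed over expected ratio of 0.891 as the median (range 0.734 for E2f3 to 1.05 for Rb1), against 0.729 over open promoters and 0.571 over all genes.

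An E2F word lay in the 300 bp centred on the strongest shared promoter region of 6 of 10 members, namely E2f1, E2f3, E2f7, E2f8, Rb1 and Rbl1, against 598 of 13028 open promoters (4.59%). The words contain CpG, and among the 6385 open promoters with a CpG ratio of at least that of E2f3, 390 (6.11%) held one. The 7-letter cores without the first T lay in the same 6 members, against 20.4% of open promoters. E2f4, E2f5 and E2f6 had none. E2f2 had none in its strongest region by the mean, but TTTGGCGC lay in its other main region at chr4:136172313-136172320, 77.5 bp upstream of the GENCODE start and 42.5 bp past the upstream RefSeq start, at position 136172274.

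Of the 7 E2F words in these windows, 6 overlapped a footprint of both libraries by at least 1 bp (85.7%), against 294 of 635 over all open promoters (46.3%). The 6 words belong to 5 members, and 278 of 13028 open promoters (2.13%) held such a footprinted word. E2F words outside these windows, in other promoter regions of E2f2, E2f3 and Rbl1, did not overlap a footprint in both libraries. E2f1 carries GCGGCAAA at chr2:154569881-154569888 and TTTGGCGC at chr2:154569868-154569875, in opposite orientations. Their midpoints are 7.5 and 20.5 bp past the nearest GENCODE start. In each library 1 footprint, of 10 and 14 bp, touched both words and the bases between them without covering either word in full. RefSeq places the E2f1 start further downstream, at position 154569426, and with that start both words lie in front of the gene.

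E2f3 carries GCGGGAAA at chr13:29986067-29986074, 7.5 bp upstream of its main start, inside footprints of 13 and 16 bp. Rbl1 carries TTTCGCGC at chr2:157204545-157204552, 36.5 bp upstream of the GENCODE start, inside footprints of 31 and 28 bp. Rb1 carries TTTCCCGC at chr14:73325813-73325820, 5.5 bp past its start, inside a footprint of 30 bp in replicate 1 and partly under one of 9 bp in replicate 2. The E2f7 word, GCGGGAAA at chr10:110745241-110745248, lies just outside the open region and under no footprint. Which protein, if any, occupied a word was not measured.

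The other words were spread differently. A GC box (GGGCGG) lay in 9 of 10 member windows, against 71.9% of open promoters, and a CACCC word in 8 of 10, against 73.0%. A CCAAT box lay in 5 of 10, against 37.1%. The CHR word (TTTGAA or TTCGAA), known from genes of mitosis, lay in 1 of 10 members, E2f3, against 9.47% of open promoters. ETS (CCGGAAGT), NRF1, CRE (TGACGTCA), GATA, E-box and TCACGTG words lay in 0 of 10 member windows, against 8.65%, 12.0%, 3.79%, 6.18%, 23.8% and 6.23% of open promoters. The YY1 word (AAGATGGC) lay in 1 member, E2f6 (5.63% of open promoters), and the RUNX word (TGTGGT) in 2, E2f5 and E2f6 (10.7%).

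The gene bodies with 50 kb on either side held 112 shared regions. Of these, 25 were at the members' own promoters, 20 in their introns, 37 in the flanks away from start sites and 30 at promoters of other genes. Per 100 kb of window the members had a median of 5.24 shared regions, against 4.51 over all protein-coding genes. E2f4 had 26 regions (24.1 per 100 kb, the 98.8th percentile of all genes) and E2f2 had 27 (21.8 per 100 kb, the 98.0th percentile). In the E2f4 window 13 of the 26 were promoters of other genes, and in the E2f2 window 2 of 27 were. Away from start sites E2f4 had 11 regions (10.2 per 100 kb, the 96.1st percentile of all genes) and E2f2 had 20 (16.2 per 100 kb, the 99.2nd). The strongest of these 11 at E2f4, at chr8:105291041-105291180, had signals of 10.4 and 7.68. E2f5 and E2f7 had 4 each, and the 3 besides the promoter of E2f5 were all promoters of other genes.

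**Figure D2:**
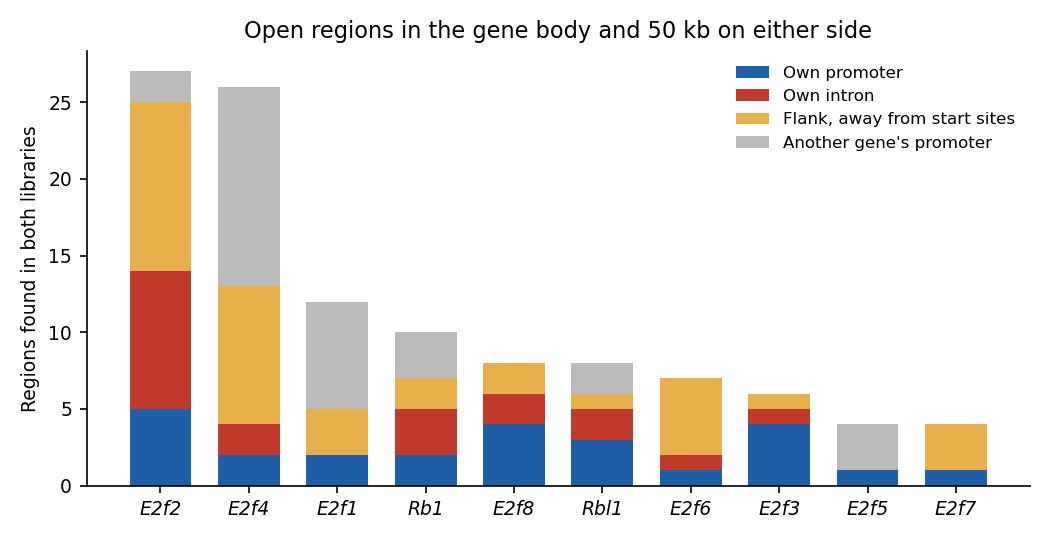
Number of regions shared by both libraries in each gene body plus 50 kb on either side, stacked by class. E2f2 has 27 regions, 9 of them intronic, and E2f4 has 26, 13 of them at promoters of other genes, while E2f5 and E2f7 have 4 each.

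E2f2 was the only member whose strongest intronic region exceeded its promoter in both libraries. Such a gene is not rare, since 1210 of 13028 open genes had this pattern (9.29%), and 1 of 10 members is close to that share. The E2f2 intronic region was 3.64 times the promoter at its protein-coding start in replicate 1 and 3.80 times in replicate 2. Of 13028 open genes, 166 reached that ratio in both libraries. With 9 intronic regions E2f2 lay at the 98.6th percentile of all genes, and with 16.2 regions away from start sites per 100 kb at the 99.2nd percentile. Regions were placed by their midpoints, and those at chr4:136178453-136178846 and chr4:136180521-136180720 also overlap an exon. Only protein-coding start sites were counted here.

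The strongest E2f2 region, 5.7 kb past the start in the first intron (chr4:136178001-136178200), had signals of 19.2 and 13.6, or 16.4 ± 3.95 (SD, n = 2). The second, 2.6 kb past the start in the same intron, had 13.4 and 10.1, or 11.8 ± 2.33. The third, in the second intron at chr4:136180061-136180240, had 10.4 and 10.7, or 10.6 ± 0.180. All of these exceeded the E2f2 promoter peaks of 5.27 and 3.58, and they lay at the 99.8th, 99.5th and 99.4th percentiles of the 39125 shared regions away from start sites. A region at chr4:136180521-136180720, with 6.91 and 5.97, lies next to the start of a non-coding E2f2 transcript at position 136180783, where RefSeq also sets an E2f2 start (136180782). It overlaps the third exon. The region at chr4:136180061-136180240 also lies within 1 kb of that non-coding start. With the starts of all transcripts it counts as promoter, and the E2f2 promoter signal becomes 10.6.

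**Figure D3:**
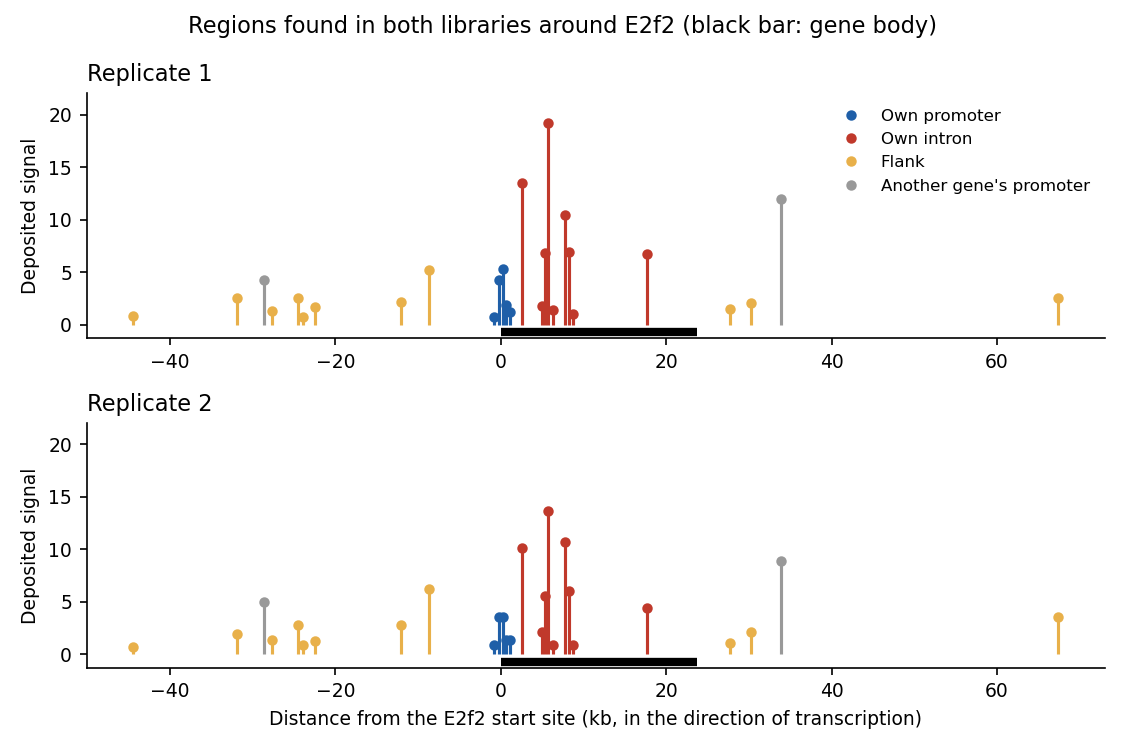
Deposited signal of each shared region around E2f2 against its distance in kb from the start site, for replicate 1 (top) and replicate 2 (bottom), coloured by class, with the gene body as a black bar. The 3 tallest lines that are not promoters of other genes are intronic (19.2, 13.4 and 10.4 in replicate 1), and the lines at the E2f2 promoter reach 5.27 and 3.58.

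In the strongest E2f2 region, CCCCACCC at chr4:136178126-136178133 runs directly into TGATAA at chr4:136178134-136178139, and CAGCTG follows at chr4:136178144-136178149, as the capitals above show. All of these words overlapped footprints of both libraries. The CACCC words at chr4:136178022-136178029 and chr4:136178078-136178085 did so too, and the last CAGCTG, at chr4:136178183-136178188, overlapped none. In the second region, GGGTGTGG at chr4:136174989-136174996 overlapped footprints of both libraries, and CAGATG one of replicate 2 alone. Over all shared regions away from start sites, a GATA word lay in 25.5%, a CACCC word in 38.9% and an E-box in 42.3% of 300-bp windows. Among the 3913 of these in the top decile of signal the shares were 24.2%, 47.9% and 37.0%, so each word is common. How often such words stand side by side, or overlap footprints, away from start sites was not counted. Among the members' 57 regions away from start sites, 15 (26.3%) held a GATA word, 25 (43.9%) a CACCC word and 30 (52.6%) an E-box. A core word of the CTCF motif (C or T, then AG, A or G, G or T, then GGC) lay in 12 (21.1%), against 29.4% over all such regions. That word was added after the sequences were seen.

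The other members had weaker intronic regions. E2f4 had signals of 7.58 and 5.65 at chr8:105300041-105300260, below its promoter. The best intronic region of E2f8 had 1.58 and 0.940, and those of E2f3, E2f6, Rb1 and Rbl1 ran from 0.511 to 0.930. E2f1, E2f5 and E2f7 had none. Rb1, the longest member with a body of 142 kb, had 3 intronic shared regions, of which the strongest in replicate 1 had 0.876 against 7.08 at its promoter.

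The partners and targets of the family were open throughout. All 8 pathway lists had every promoter open, from the DP partners (2 of 2) and the MuvB complex with its partners (7 of 7) to S phase targets (21 of 21) and G2 and M targets (15 of 15), against 59.7% of all genes. The E2F6 complex (10 of 10), RB corepressors (8 of 8), kinases and cyclins that phosphorylate RB (8 of 8) and CDK inhibitors (7 of 7) were open as well. Median promoter signals were 13.3 for S phase targets, 11.1 for MuvB, 11.0 for corepressors, 10.6 for G2 and M targets, 10.4 for the E2F6 complex, 8.50 for kinases and cyclins, 5.77 for DP partners and 5.38 for CDK inhibitors. The members' median of 8.19 lay above those of the DP partners and CDK inhibitors and below those of the other lists.

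**Figure D4:**
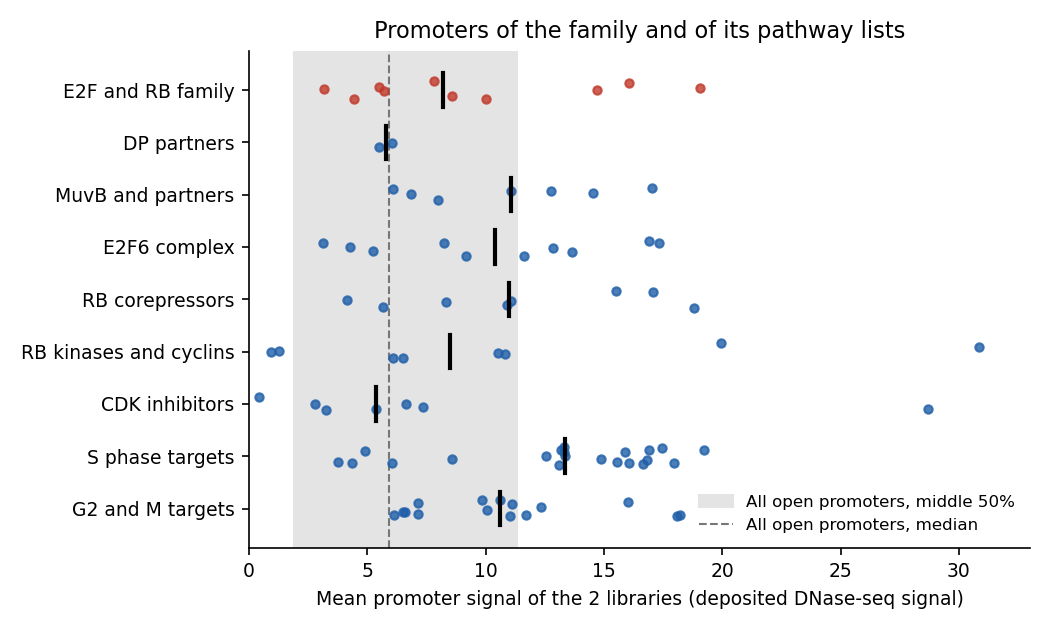
Mean promoter signal of the 2 libraries for each gene (points) of the E2F and RB family and of 8 pathway lists, with list medians as black bars. The grey band and dashed line are the middle 50% and the median (5.90) of all open promoters. S phase targets have the highest list median (13.3), and Ccne1 and Cdkn2d stand at the far right.

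Single genes of the regulating lists spread widely. Ccne1, which encodes cyclin E1, an activator of CDK2, had 32.8 and 28.9, or 30.9 ± 2.77 (SD, n = 2), above every member. Ccnd3, encoding cyclin D3, had 25.1 and 14.8, or 19.9 ± 7.26. Ccnd1 and Ccnd2, named after their values were seen, had mean signals of 0.923 and 1.27, and a stronger region inside the gene body in both libraries. Cdkn2d, encoding the CDK4 and CDK6 inhibitor p19INK4d, had 29.6 and 27.8, or 28.7 ± 1.28, and Cdkn2c, encoding p18INK4c, had 8.31 and 6.41, or 7.36 ± 1.34. Cdkn2a, also named after its values were seen, was the only gene of the lists without a stricter peak in both libraries (0.462 and 0.384).

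The DNA-binding partners Tfdp2 and Tfdp1 had mean signals of 6.04 ± 1.34 and 5.49 ± 1.26 (SD, n = 2), close to the median of open promoters. The MuvB group pairs with E2F4 and a p107-like pocket protein in resting cells and with B-MYB in dividing ones. Of this group, the histone-binding subunit gene Rbbp4 had 17.0 ± 5.34 and Mybl2, encoding B-MYB, 14.5 ± 3.39. Hdac1, a histone deacetylase gene, had 18.8 ± 3.42 and the corepressor scaffold gene Sin3a 17.1 ± 0.861. In the E2F6 complex Cbx3 had 17.3 ± 0.724 and Wdr5 16.9 ± 0.380. Of the targets, Ccna2 (cyclin A2) had 19.2 ± 0.546, the helicase subunit gene Mcm5 17.9 ± 0.0769, the kinesin gene Kif23 18.2 ± 0.0641 and Birc5 (survivin) 18.1 ± 2.61.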

How the data were processed

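DNase-seq peaks and footprints of 2 spleen libraries were used as deposited. The authors' peak lists, a longer and a stricter one per library, hold a signal per peak on mm10, per the labels. Footprint lists carry a deposited FDR (q-value) of 0.01 in every line, and the authors' position lists hold FDR values (q-values) below 0.05. The aligner, callers, versions, signal scale and placing of CAST/EiJ alleles were not given in the sources used here. Depth is unknown for want of read totals, and no counting interval is given.

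The 2 libraries were grouped as 1 group from their labels. Peaks overlapping by at least 1 bp were merged, and regions with peaks of both libraries were kept. Start sites were those of GENCODE vM21 basic protein-coding transcripts. Words were searched on both strands of the GRCm38 reference in 300-bp windows. Region classes use midpoints. Percentiles are among open promoters unless all genes are named. No test was run, since there is 1 group. Members, gene lists and words were chosen with earlier results of these data known. Named genes are the members, the 2 strongest of each pathway list, the spleen anlage genes Tlx1 and Nkx2-5 of the marker lists, chosen after their values were seen, and others said to be named after their values were seen. The E2f8 promoter sequence is not reported here. The overlap code was tested on simulated peaks. Python 3.11.15, numpy 2.4.6, pandas 2.3.3 and pysam 0.24.0 were used. Alternatives were 1 library alone, the stricter list, other windows, overlaps, transcripts, flanks and words.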

Additional observations from a re-analysis of the deposited data

How the results depend on the processing

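All 10 promoters were open under every alternative tried. The members' median signal was 6.88 and 9.50 with 1 library left out, 9.30 at 2500 bp and 8.19 at 500 bp, and moved to 11.1 when all peaks of the window were summed. With summed peaks 5 of 10 single members moved by more than their SD. E2f2 alone moved at 2500 bp (11.8 against 4.43) and with the starts of all transcripts (10.6), since both windows then reach its intronic regions. The 112 shared regions became 41 in gene bodies alone, by construction, and 81 to 168 under the other settings. E2F words lay in 4 (200-bp windows) to 7 members, 7 being reached without replicate 1, where the E2f2 region upstream of the start is its strongest. No paired analysis was possible because there is only 1 group. With no depth, a peak listed in 1 library alone may lie under the other's limit of detection.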

Other observations

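The lists of E2F targets differed in the words of their promoters. In the same 300-bp promoter windows, an E2F word lay in 6 of 10 members, 12 of 21 S phase targets and 2 of 15 G2 and M targets, against 4.59% of open promoters. The CHR word lay in 1 of 10 members, 3 of 21 S phase targets and 12 of 15 G2 and M targets, against 9.47%. A CCAAT box lay in 5 of 10 members, 14 of 21 S phase targets and 14 of 15 G2 and M targets, against 37.1%. These lists hold genes chosen for known E2F or CHR control, so the counts describe them and are no independent evidence. A stronger region inside the gene body than at the promoter, as at E2f2, was found in both libraries for 5 of 10 erythroid, 3 of 7 B cell, 1 of 2 T cell, 0 of 3 macrophage and 0 of 1 stroma marker genes with an open promoter, for 2 of 8 RB kinases and cyclins and 1 of 7 CDK inhibitors, and for 0 genes of the other pathway lists, against 9.29% of open genes.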
